A study of Homo sapiens with 95 samples.

Results

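The 10 genes described here mark epithelial or mesenchymal identity and were followed through a 3′ digital gene expression (3′DGE) series of AALE cells, an immortalized line of human bronchial epithelium. They were chosen by symbol: CDH1, EPCAM, CLDN1, CDH3, GRHL2, TP63, VIM, CDH2, SNAI2 and ZEB1. All 10 were found among the 23895 genes listed for every well. 3′DGE reads a short tag from the 3′ end of each polyadenylated transcript and counts each captured molecule once by its unique molecular identifier (UMI). The series held 95 wells of 8 cell populations. NRF2 (NFE2L2), FGFR1, NRG1 or PIK3CA was overexpressed in 4 of them, against cells carrying an empty vector with the HcRed reporter (HCRED in the plots). FAT1 or CDKN2A was targeted by CRISPR in 2 others, against GFP cells that had received the Cas9-EGFP plasmid but no guide RNA. The sources used here did not say whether any population was a single clone. Every population was kept in DMSO vehicle or exposed to cigarette smoke condensate (CSC, 24 µg/ml), benzo[a]pyrene (BaP, 173 µM) or the nitrosamine NNK (490 µM). The exposure time was not given in the sources used here.

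The comparisons used 82 wells with 1-digit replicate numbers, in 31 groups of which 25 held 3 wells. The other 13 wells, in 6 groups, carried 2-digit numbers that could mark repeat wells of the same material. The study described the wells of a condition as biological replicates, the labels did not say whether they were separate cultures, and p-values measure the spread between wells. Total UMI counts ran from 692446 to 1895735 per well. Each plate row held 1 chemical, and each population kept the same columns in every other row. Pairs of populations shared their columns, such as NRF2 and HcRed cells, and differed in row. Neither chemical nor population can therefore be told apart from plate position. Levels are given as CPM, the UMI count of a gene scaled to a well total of 1000000 UMIs. As each molecule gives 1 tag whatever the transcript length, CPM needs no length correction, although genes whose 3′ ends are caught less well are understated.

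In DMSO the targeted gene did not overlap with the control in any of the 6 populations. It was higher in the overexpression populations, for instance 139 to 163 CPM of NFE2L2 against 36.8 to 51.9 in HcRed cells, and lower in the knockouts, 0 to 3.40 CPM of FAT1 against 5.86 to 11.6 in GFP cells. A 3′ tag does not read the edited part of a knockout, so the lower counts are not a check of the edit itself. The spread over all genes is given here only for wells with high CDH1: NRG1 NNK replicate 2, GFP NNK replicate 3 and NRF2 BaP replicate 1. Among these NRG1 NNK replicate 2 stood apart. In that well 36.1% of 7577 well-counted genes differed more than 2-fold from the mean of the other 2 wells. NNK calls that use it are given with and without it.

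Epithelial cells are held together by adherens junctions built on E-cadherin and by tight junctions built on claudins, while mesenchymal cells carry N-cadherin and a vimentin cytoskeleton. In epithelial-mesenchymal transition, repressors of the SNAIL and ZEB families shut down E-cadherin and its partners, and GRHL2 and related factors keep them on. Basal cells, the progenitors of the bronchial epithelium, depend on the transcription factor p63, carry P-cadherin, and can express some vimentin and SLUG without leaving the epithelium.

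The cells carried epithelial markers. Summed over 7 epithelial markers (CDH1, EPCAM, KRT5, KRT8, KRT18, KRT19 and TP63), the level ran from 460.1 to 1036 CPM over the 82 wells. Fibroblast markers summed to 0 to 15.8 CPM, most of it the proteoglycan gene DCN, while COL1A2, COL3A1, PDGFRA and PDGFRB averaged at most 0.0145 CPM each. Markers of secretory cells summed to at most 0.773 CPM, of ciliated cells to at most 6.63 CPM and of endothelial cells to at most 5.42 CPM. Leukocyte markers summed to 5.04 to 39.4 CPM, most of it CD68, a lysosomal gene of many cell types. PTPRC averaged 0.0325 CPM, and CD3E was at 0 in every well.

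Of the 10 genes, 5 had an entry in the promoter table used here (CDH2, CLDN1, TP63, VIM and ZEB1, from RefSeq on the GRCh38.p14 assembly). The 250 bases before the start site are shown for VIM and CLDN1. Among these 5 they had the largest F statistics in the test between populations under DMSO given below. Capitals mark a match to AACCGG, the core of sites bound by grainyhead-like factors such as GRHL2. On either strand of the windows, AACCGG was found once in CLDN1, with its first base 119 bases before the start site, and not in VIM. Neither window held CAGGTG, the E-box that SLUG and ZEB1 bind, or any other match to CANNTG, the general E-box letters. TGANTCA, the AP-1 site, was also in neither. Among 35116 windows of the same length in the table, 5.99% held AACCGG, 17.5% held CAGGTG, 61.8% held CANNTG and 6.57% held TGANTCA. A match is a description of the letters and no evidence of binding.
VIM, chr10:17227991-17228240, plus strand: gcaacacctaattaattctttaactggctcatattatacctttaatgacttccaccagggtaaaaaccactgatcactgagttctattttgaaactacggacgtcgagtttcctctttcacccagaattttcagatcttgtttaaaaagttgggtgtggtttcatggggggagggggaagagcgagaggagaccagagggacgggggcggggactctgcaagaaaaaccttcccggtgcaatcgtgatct
CLDN1, chr3:190322447-190322696, minus strand: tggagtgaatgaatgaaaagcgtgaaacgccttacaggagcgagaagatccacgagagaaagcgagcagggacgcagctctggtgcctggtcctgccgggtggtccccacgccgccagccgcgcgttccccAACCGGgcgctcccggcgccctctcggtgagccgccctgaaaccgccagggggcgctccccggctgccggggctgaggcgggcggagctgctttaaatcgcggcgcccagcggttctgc

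On the hg19 assembly used for counting, CDH3 (chromosome 16, 68670092 to 68761371) and CDH1 (68771195 to 68869440) lie head to tail on the plus strand, 9.82 kb apart. CLDN1 (chromosome 3, 190023496 to 190040235, minus strand) lies 408 kb beyond the end of TP63 (189349178 to 189615065, plus strand). EPCAM is on chromosome 2 (47572297 to 47614740), VIM on chromosome 10 (17270240 to 17279592) and CDH2 on chromosome 18 (25512843 to 25757910, minus strand). ZEB1 (chromosome 10, 31607424 to 31818742) overlaps its antisense transcript ZEB1-AS1, which had 89 counts over the 95 wells against 185 for ZEB1, and the sources used here did not state that counting used strand. SNAI2 and GRHL2 are both on chromosome 8.

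Levels set what could be seen. Over the 82 wells EPCAM averaged 35.5 CPM ± 12.7 (SD), VIM 27.2 ± 22.6, CDH1 24.0 ± 12.1 and TP63 20.9 ± 5.99. SNAI2 averaged 13.7 CPM ± 7.09, CDH3 11.4 ± 3.52, GRHL2 10.6 ± 3.88 and CLDN1 6.69 ± 4.54, and all 8 of these genes were counted in every well. ZEB1 and CDH2 were near the limit, at 1.54 and 0.996 CPM, with no count in 18 and 34 wells. A count of 0 allows up to 3 counts, which is 1.58 CPM in the deepest well and 4.33 CPM in the shallowest, so most differences in these 2 genes were not detectable at this depth. Intervals and limits of this kind cover counting error only.

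VIM had the largest F statistic of the members. Under DMSO, 6 of the 10 members differed somewhere among the 8 populations at an adjusted p-value under 0.05 (moderated F test in limma-voom over 24 wells), against 39.5% of the 11595 genes tested. They were VIM (F = 54.6, adjusted p = 3.39e-33), EPCAM (F = 10.9, adjusted p = 1.32e-09), CLDN1 (F = 8.55, adjusted p = 1.48e-07), ZEB1 (F = 4.17, adjusted p = 0.0016), SNAI2 (F = 3.01, adjusted p = 0.018) and TP63 (F = 2.65, adjusted p = 0.0366). The call for ZEB1 was lost without replicate 3 of every population (adjusted p = 0.225), the call for SNAI2 without replicate 1 or 2 (0.246 and 0.302), and the call for TP63 without any one of the 3 numbers (0.0686 to 0.161). DESeq2 did not call SNAI2 (0.0919) or TP63 (0.111). CDH1, CDH3, GRHL2 and CDH2 did not pass. When genes with low counts were kept in the fit, CDH2 passed the same F test (adjusted p = 0.0129).

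**Figure D1:**
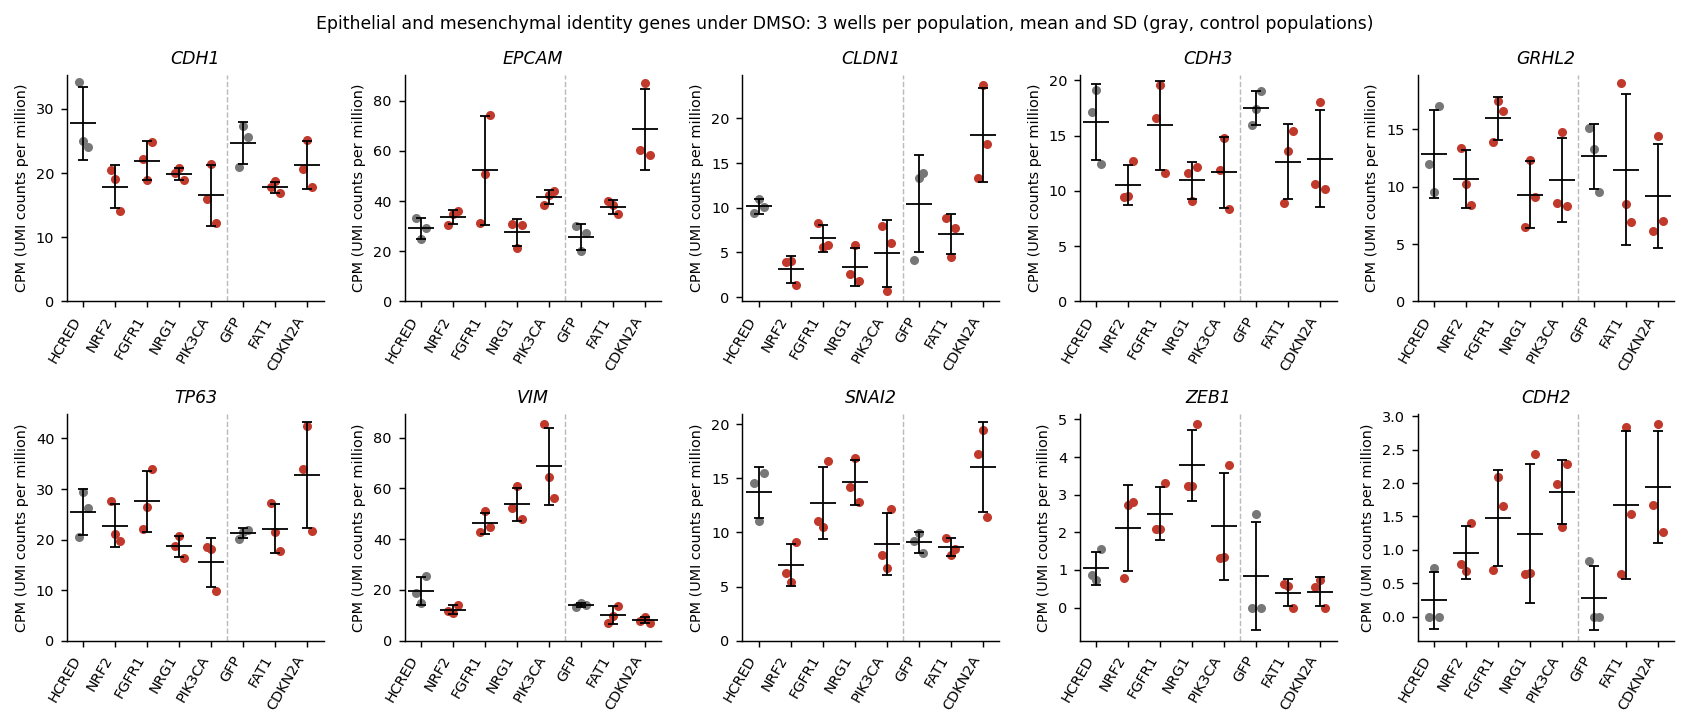
Each panel plots the level of 1 gene (y axis, CPM, linear) in the 8 populations under DMSO (x axis). Points are wells, 3 per population, gray for the control populations and red for the others, and bars give the mean and SD. VIM is at 42.9 CPM or more in every FGFR1, NRG1 and PIK3CA well and at 25.6 CPM or less in every other well, while ZEB1 reaches at most 4.88 CPM and CDH2 at most 2.88 CPM.

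Population by population, the count of members called by limma-voom has to be read against the share of all genes called in the same comparison. NRF2 cells differed from HcRed cells in 1 of the 9 members tested (4.92% of all genes), FGFR1 cells in 2 of 10 (0.905%), NRG1 cells in 2 of 10 (3.1%) and PIK3CA cells in 3 of 10 (5.37%). The FGFR1 share was not steady. It stood for 103 genes, and leaving out 1 well gave from 50 to 316. FAT1 cells differed from GFP cells in 1 of 9 (14.1%) and CDKN2A cells in 2 of 9 (17.9%). Between the 2 control populations, GFP against HcRed, 0 of 9 members passed (10.8% of all genes), with 0 at an unadjusted p under 0.05 and 0 called by edgeR or DESeq2 (the latter with no adjusted p for 3). The NRF2, FGFR1, NRG1 and PIK3CA comparisons share the HcRed wells, and the FAT1 and CDKN2A comparisons share the GFP wells, so they are not independent of each other. The median log2 fold change of the members tested ran from -0.51 (NRF2) to 0.45 (CDKN2A), while the median over all genes lay between -0.03 and 0.03.

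The junction genes come first. EPCAM, a surface glycoprotein that mediates contacts between epithelial cells, was counted at 33.4, 25 and 29.4 CPM in the 3 HcRed DMSO wells and at 30.2, 19.9 and 27.1 CPM in the GFP wells. It stood at 60.3, 87.1 and 58.5 CPM in CDKN2A cells. All 3 CDKN2A wells lay above all GFP wells, by 1.28 on the log2 scale (SE 0.20, 2.43-fold, adjusted p = 2.35e-07). FAT1 cells had 40.0, 38.5 and 34.7 CPM, also without overlap with GFP cells (log2 fold change 0.62, SE 0.19, adjusted p = 0.0168). That call was lost without GFP replicate 2, the lowest GFP well (adjusted p = 0.141), and in DESeq2 (0.111), whereas the CDKN2A call held with any one well left out.

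EPCAM was higher than in HcRed cells in PIK3CA cells, at 38.4, 42.3 and 44.1 CPM (log2 fold change 0.58, SE 0.18, adjusted p = 0.0384), with no overlap between the groups. FGFR1 cells were uneven, at 31.2, 51.0 and 74.6 CPM, and their lowest well fell inside the HcRed range (log2 fold change 0.74, SE 0.20, adjusted p = 0.0251). Neither call was firm. The FGFR1 call was lost without any one of the 3 HcRed wells or without FGFR1 replicate 2 or 3 (adjusted p from 0.0603 to 0.369), and the PIK3CA call without HcRed replicate 2 or 3 or PIK3CA replicate 2 or 3 (0.0664 to 0.271). DESeq2 made neither (0.286 and 0.175). NRF2 (30.7, 34.7 and 35.9 CPM) and NRG1 cells (31.03, 21.4 and 30.5 CPM) overlapped with HcRed cells and did not pass, with 95% intervals of the log2 fold change from -0.05 to 0.69 and from -0.39 to 0.38.

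CLDN1, a sealing protein of tight junctions, was lower under DMSO in 3 of the 4 overexpression populations. HcRed wells had 9.41, 11.03 and 10.1 CPM. The wells held 3.94, 4.08 and 1.41 CPM in NRF2 cells, 2.59, 5.84 and 1.83 CPM in NRG1 cells and 7.95, 0.671 and 6.08 CPM in PIK3CA cells. All 9 of these wells lay below all 3 HcRed wells, and the log2 fold changes were -1.62 (SE 0.44, adjusted p = 0.0146), -1.59 (SE 0.42, adjusted p = 0.0157) and -1.45 (SE 0.45, adjusted p = 0.0408). FGFR1 cells, at 8.31, 5.59 and 5.80 CPM, also lay below HcRed cells without passing the test (log2 fold change -0.64, 95% interval -1.37 to 0.09).

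These are small counts, of 1 to 15 UMIs per well, and 1 well could decide the call. In PIK3CA cells replicate 2 had 0.671 CPM, and without it the log2 fold change was -0.46 (adjusted p = 0.656). That call was also lost without HcRed replicate 2 (adjusted p = 0.113) or 3 (0.083), and edgeR did not make it (log2 fold change -0.99, adjusted p = 0.124). The NRF2 call was lost without NRF2 replicate 3 (adjusted p = 0.171). The NRG1 call was lost without HcRed replicate 2 or NRG1 replicate 1 or 3 (0.0564 to 0.151). CDKN2A cells had the highest levels, 13.4, 23.8 and 17.2 CPM, overlapping with the 4.20, 13.3 and 13.9 CPM of GFP cells (log2 fold change 0.74, SE 0.32, adjusted p = 0.0925). Without CDKN2A replicate 1 this passed (0.92, adjusted p = 0.0407). FAT1 cells, at 8.89, 4.53 and 7.72 CPM, overlapped with GFP cells as well. In the order of means a gap separated FAT1 from HcRed cells for CLDN1, and all other neighbours overlapped, as they did throughout for EPCAM.

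CDH1 encodes E-cadherin, the core protein of epithelial adherens junctions. Under DMSO it was highest in HcRed cells, at 34.2, 25 and 24.0 CPM, and lowest in PIK3CA cells, at 15.9, 21.5 and 12.2 CPM. The PIK3CA wells all lay below the HcRed wells, but the difference missed the threshold (log2 fold change -0.67, SE 0.23, adjusted p = 0.0736). With well totals in place of TMM factors it passed at an adjusted p of 0.0484, and without PIK3CA replicate 2 at 0.0344. NRF2 cells, at 20.5, 19.1 and 14.1 CPM, lay below HcRed cells as well (log2 fold change -0.52, SE 0.22, adjusted p = 0.205). In the order of the means each population overlapped with its neighbour.

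CDH3, the P-cadherin of basal cells, had means from 10.6 CPM in NRF2 cells to 17.5 CPM in GFP cells under DMSO. GRHL2, which maintains junction gene expression, ranged from 9.18 CPM in CDKN2A cells to 16.0 CPM in FGFR1 cells. Neighbours in the order of means overlapped for both genes, and neither passed in any DMSO comparison. TP63, the regulator of basal identity, ran from 15.5 CPM in PIK3CA cells to 32.7 CPM in CDKN2A cells. The PIK3CA wells, at 18.6, 18.1 and 9.88 CPM, lay below the 20.5, 29.4 and 26.3 CPM of HcRed cells (log2 fold change -0.66, SE 0.24, adjusted p = 0.0919), and only without HcRed replicate 1 did this pass (adjusted p = 0.0448). In CDKN2A cells, at 34.0, 42.5 and 21.6 CPM, the log2 fold change from GFP cells was 0.45 (SE 0.23, adjusted p = 0.172), and without CDKN2A replicate 3 it was 0.70 (adjusted p = 0.0298).

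On the mesenchymal side, VIM encodes vimentin, the intermediate filament protein of mesenchymal cells. HcRed wells had 18.8, 14.7 and 25.6 CPM of it under DMSO. FGFR1 wells had 42.9, 51.0 and 44.7 CPM, NRG1 wells 52.4, 61.0 and 48.1 CPM, and PIK3CA wells 85.5, 64.4 and 56.2 CPM. All 9 lay above all HcRed wells. VIM rose by 1.24 on the log2 scale in FGFR1 cells (SE 0.22, 2.37-fold, adjusted p = 9.42e-06), 1.54 in NRG1 cells (SE 0.20, 2.92-fold, adjusted p = 5.6e-09) and 1.88 in PIK3CA cells (SE 0.20, 3.69-fold, adjusted p = 1.96e-11). All 3 calls held with any one well left out.

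Elsewhere VIM was low. GFP wells had 13.4, 15.0 and 13.9 CPM and CDKN2A wells 7.81, 9.36 and 6.99 CPM, without overlap. VIM fell by 0.91 on the log2 scale in CDKN2A cells (SE 0.31, adjusted p = 0.0297). The log2 fold change stayed between -0.93 and -0.83 in the 5 fits without 1 well that lost this call, at adjusted p-values of 0.0646 to 0.0976, and DESeq2 did not make it (0.139). FAT1 cells (6.98, 9.63 and 13.9 CPM) and NRF2 cells (11.8, 10.9 and 14.1 CPM) did not pass, with log2 fold changes of -0.50 and -0.54. In the order of means, CDKN2A, FAT1, NRF2, GFP and HcRed cells each overlapped with the next, a gap separated HcRed from FGFR1 cells, and FGFR1, NRG1 and PIK3CA cells overlapped again.

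The gap in VIM held over all 95 wells, 2-digit wells included. The 36 wells of FGFR1, NRG1 and PIK3CA cells had 32.7 to 85.5 CPM and the 59 wells of the other 5 populations had 4.63 to 28.2 CPM. The epithelial marker sum ran from 540.8 to 1036 CPM in NRG1 wells, from 564.4 to 916.9 CPM in FGFR1 wells and from 460.1 to 630.6 CPM in PIK3CA wells, against 571.7 to 937 CPM in HcRed wells. The fibroblast marker sum was 6.46 to 15.8 CPM in NRG1, 2.10 to 11.6 CPM in FGFR1 and 2.81 to 13.4 CPM in PIK3CA wells, and 1.47 to 8.09 CPM in HcRed wells. Of the 7 fibroblast markers, 3 (NRG1 and FGFR1) or 4 (PIK3CA and HcRed) were at 0 in every well, and DCN supplied most of the sum. Fewer cells with a gene and less RNA per cell cannot be told apart in bulk wells.

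SNAI2 encodes SLUG, a repressor of E-cadherin that basal epithelial cells also express. It was lowest in NRF2 cells under DMSO, at 6.30, 5.44 and 9.15 CPM, all below the 14.6, 11.03 and 15.5 CPM of HcRed cells (log2 fold change -0.86, SE 0.33, adjusted p = 0.138). It was highest in CDKN2A cells, at 17.3, 19.4 and 11.5 CPM, above the 9.23, 9.97 and 8.06 CPM of GFP cells (log2 fold change 0.66, SE 0.31, adjusted p = 0.135). Neither difference passed. ZEB1, a repressor of the junction programme, reached 3.23, 3.24 and 4.88 CPM in NRG1 cells, against 0.856, 0.735 and 1.55 CPM in HcRed cells (log2 fold change 1.62, SE 0.69, adjusted p = 0.248). It also did not pass. In the order of means a gap separated GFP from FGFR1 cells for SNAI2, while neighbours overlapped throughout for ZEB1. CDH2, the N-cadherin of mesenchymal cells, was at most 2.88 CPM in any DMSO well, from 0 to 5 counts.

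The same populations could be compared under the other chemicals where both sides had 3 wells. VIM was again above HcRed without overlap in FGFR1 cells under NNK (40.4, 45.5 and 54.9 against 13.9, 13.4 and 17.0 CPM), the 1 member of 9 that passed (1.57% of all genes), higher by 1.60 on the log2 scale (SE 0.26, adjusted p = 3.3e-06). In PIK3CA cells under CSC (63.8, 59.3 and 66.1 CPM) and NNK (70.0, 64.1 and 79.0 CPM) it was higher by 2.13 (SE 0.16, adjusted p = 4.63e-16), 1 of 2 members called among 10 (8.16% of all genes). NRG1 cells under NNK had 48.1, 67.8 and 37.2 CPM, and VIM was the only member of 10 that passed (0.116% of all genes; log2 fold change 1.58, SE 0.32, adjusted p = 0.0348). Without the well that stood apart it was 1.55 (adjusted p = 3.37e-05), again the only member called, now of 9 tested, as CDH2 no longer passed the filter, and 0.991% of all genes passed. Without every replicate 1 or every replicate 3, which kept that well, the call was lost (adjusted p = 0.777 and 0.166).

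In NRF2 cells under CSC and NNK, 2 of 9 members passed, both lower (6.53% of all genes). VIM had 10.0, 9.04 and 7.33 CPM under CSC and 10.6, 4.77 and 13.3 CPM under NNK, below HcRed cells without overlap in each chemical (log2 fold change -0.77, SE 0.23, adjusted p = 0.0281). That call was lost without any one of the 3 replicate numbers (0.0617 to 0.179) and in DESeq2 (0.101). SNAI2 had 5.69, 6.82 and 8.13 CPM under NNK against 18.5, 21.4 and 17.0 CPM in HcRed cells, and overlapped with HcRed cells under CSC (log2 fold change -1.01, SE 0.22, adjusted p = 0.00108). It was lost without replicate 2 (adjusted p = 0.138).

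The second call in PIK3CA cells was CDH2, with 1.40, 1.96 and 3.94 CPM under CSC and 0.985, 3.56 and 2.69 CPM under NNK. In the 6 HcRed wells a single molecule was counted, against 18 in the 6 PIK3CA wells, a ratio per total count of 14.8 with a 95% counting interval from 2.34 to 617 (exact conditional binomial). The fitted log2 fold change of 2.17 (SE 0.59, adjusted p = 0.0112) depends on the small number added to each count before logs are taken. CDH2 passed the filter on low counts only through the PIK3CA wells, so that its call does not count as support for a difference. Without replicate 2 or 3 it did not pass (0.238 and 0.175). CDH1 (log2 fold change -0.12) and CLDN1 (-0.08) did not differ from HcRed cells by more than their errors there.

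FAT1 cells under CSC, BaP and NNK had the most members called, 4 of 8 tested, but 27.9% of all genes passed in this comparison of 18 wells. EPCAM was again higher (log2 fold change 0.42, SE 0.12, adjusted p = 0.00524), with FAT1 wells above all GFP wells under CSC and NNK and overlapping under BaP. SNAI2 was higher (0.68, SE 0.20, adjusted p = 0.00582), with 21.2, 17.0 and 13.6 CPM under BaP against 10.8, 8.51 and 7.49 CPM in GFP cells and overlap under CSC and NNK. CDH1 was lower (-0.48, SE 0.16, adjusted p = 0.0154), and so was CLDN1 (-0.56, SE 0.20, adjusted p = 0.0338), without a gap in CLDN1 under any chemical. Both of these calls were lost without GFP NNK replicate 3, a well with 95.4 CPM of CDH1 (CDH1 -0.26, adjusted p = 0.159, and CLDN1 -0.48, adjusted p = 0.0815), where VIM passed instead (-0.61, adjusted p = 0.0208). DESeq2 made neither call (CDH1 0.083, CLDN1 0.0521). The EPCAM call was lost without every replicate 2 (adjusted p = 0.0918), and the SNAI2 call without every replicate 2 or 3 (0.0753 and 0.0676).

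GFP and HcRed cells, the 2 controls, differed under CSC and NNK in 3 of 9 members (16.6% of all genes). CLDN1 was 10.8, 18.3 and 14.6 CPM in GFP cells under CSC and 5.71, 15.6 and 13.2 CPM under NNK, against 5.32, 3.76 and 1.75 CPM and 4.63, 6.25 and 1.06 CPM in HcRed cells (log2 fold change 1.76, SE 0.36, adjusted p = 0.000192). The CLDN1 wells did not overlap under CSC and overlapped under NNK. SNAI2 was lower in GFP cells (-0.88, SE 0.25, adjusted p = 0.00974) and CDH1 higher (0.81, SE 0.22, adjusted p = 0.00622). The CDH1 call was lost without GFP NNK replicate 3 (log2 fold change 0.49, adjusted p = 0.0609) and in DESeq2 (0.118), and the SNAI2 call without every replicate 2 or 3 (adjusted p = 0.259 and 0.051). Each population was set only against its own control.

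**Figure D2:**
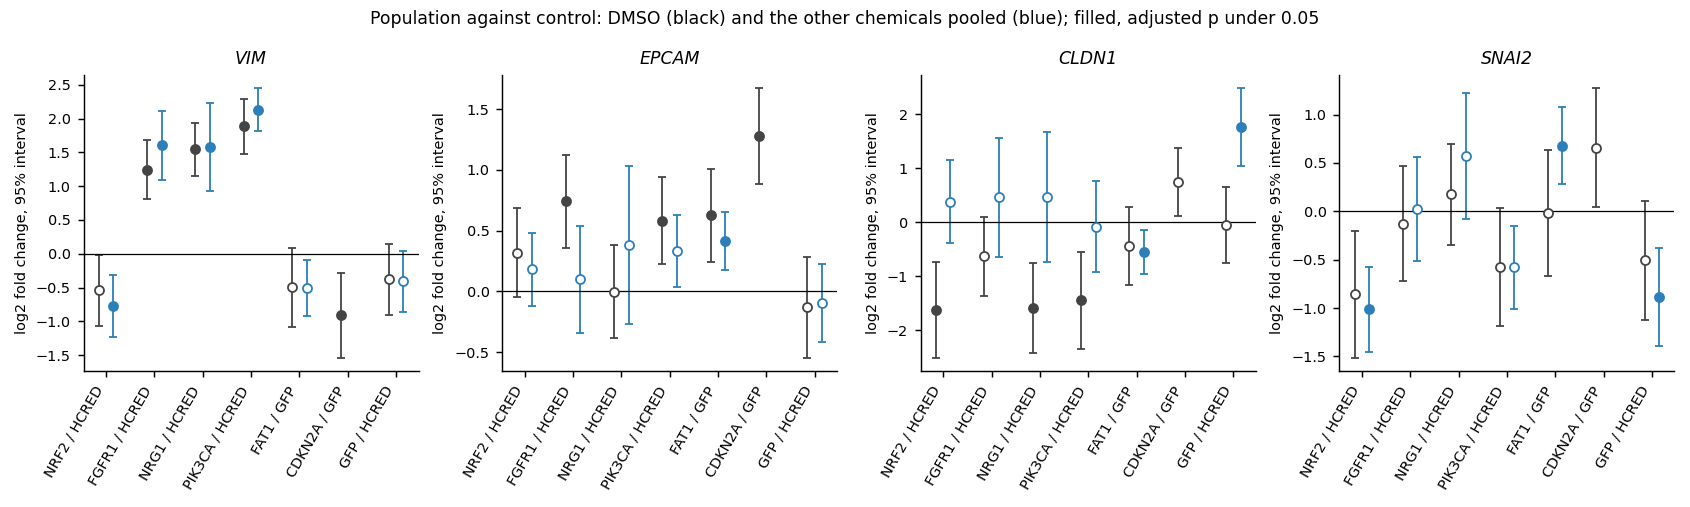
Log2 fold change (y axis) of VIM, EPCAM, CLDN1 and SNAI2 in each population against its control (x axis), with 95% intervals from limma-voom. Black marks DMSO, blue the other chemicals with 3 wells on both sides pooled, and filled symbols an adjusted p under 0.05. VIM is between 1.24 and 2.13 in FGFR1, NRG1 and PIK3CA cells in both settings, whereas CLDN1 is at -1.62 to -1.45 in NRF2, NRG1 and PIK3CA cells under DMSO and between -0.08 and 0.46 in the same cells under the other chemicals.

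Under the other chemicals CLDN1 in NRF2, NRG1 and PIK3CA cells did not pass against HcRed cells, which there had 1.06 to 6.25 CPM, below their 9.41 to 11.03 CPM in DMSO. The change in the difference between other chemicals and DMSO was tested directly, in a test added after the values were seen. By limma-voom it was 2.01 on the log2 scale for NRF2 (SE 0.60, adjusted p = 0.382), 2.07 for NRG1 (SE 0.72, adjusted p = 0.778) and 1.35 for PIK3CA (SE 0.66, adjusted p = 0.923), so that none passed over all genes. Without NRG1 NNK replicate 2 the NRG1 value was 2.03 (SE 0.72, adjusted p = 0.823). No member passed that test in any of the 6 populations that could be fitted, where at most 0.0983% of all genes did.

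Chemicals were compared with DMSO across the populations that had 3 wells under both, 5 for CSC and for BaP and 7 for NNK, with population as a covariate. SNAI2 was the only member that passed under all 3 chemicals. CSC changed 1 of 10 members (5.82% of all genes), SNAI2, which rose by 0.67 on the log2 scale (SE 0.13, 1.59-fold, adjusted p = 0.000101, 30 wells). Mean SNAI2 in DMSO and CSC was 13.7 and 18.5 CPM in HcRed cells, 6.96 and 11.6 CPM in NRF2, 8.94 and 15.3 CPM in PIK3CA, 9.09 and 13.3 CPM in GFP and 8.65 and 15.1 CPM in FAT1 cells. The change was positive in 5 of 5 populations, and in PIK3CA, GFP and FAT1 cells all CSC wells lay above all DMSO wells. The call held with each population or each replicate number left out.

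BaP also changed 1 of 10 members (9.11% of all genes), SNAI2 again, by 0.48 (SE 0.14, 1.40-fold, adjusted p = 0.0164, 30 wells). The DMSO and BaP means were 14.6 and 24.2 CPM in NRG1 and 8.65 and 17.3 CPM in FAT1 cells, without overlap between wells, and 9.09 and 8.94 CPM in GFP and 6.96 and 5.46 CPM in NRF2 cells, with overlap. The call was lost without NRG1 cells (log2 fold change 0.36, adjusted p = 0.229), without FAT1 cells (0.34, adjusted p = 0.232) and without replicate 1 or 2 (0.146 and 0.195).

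NNK changed 3 of 10 members (7.22% of all genes, 42 wells). Without NRG1 NNK replicate 2 the same 3 members passed, but 19.8% of all genes did. SNAI2 rose by 0.58 (SE 0.12, 1.49-fold, adjusted p = 0.00078), with a positive change in 6 of 7 populations and no overlap in HcRed, NRG1 and FAT1 cells. Without that well it rose by 0.51 (adjusted p = 0.0013). CDH1 rose by 0.55 (SE 0.11, 1.47-fold, adjusted p = 0.000108), again positive in 6 of 7. The FAT1 wells, for instance, went from 17.8, 18.7 and 17.0 CPM under DMSO to 26.3, 25.2 and 28.8 CPM under NNK. HcRed cells went the other way, from 34.2, 25 and 24.0 CPM to 19.7, 23.2 and 17.0 CPM. CDH3 fell by 0.41 on the log2 scale (SE 0.12, adjusted p = 0.024), with all NNK wells below all DMSO wells in FGFR1 and GFP cells, and by 0.43 without that well (adjusted p = 0.00669).

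Single wells weighed on CDH1. In GFP cells under NNK the wells had 33.4, 29.0 and 95.4 CPM, and in NRG1 cells 25.1, 75.3 and 22.3 CPM. In NRF2 cells under BaP they had 61.9, 21.5 and 14.7 CPM. The NRG1 well was the one that stood apart in 36.1% of its genes, with EPCAM at 92.2, SNAI2 at 54.2 and TP63 at 35.9 CPM as well. In the GFP and NRF2 wells only 1.81% and 1.71% of genes differed more than 2-fold from the mean of the other wells, and EPCAM, for instance, was at 1.04 and 0.998 times that mean. Without the NRG1 well CDH1 still rose under NNK, by 0.50 (adjusted p = 0.000124). Without the NRG1 and the GFP well together the rise was 0.39 (adjusted p = 0.000372). The CDH3 call was less firm, and it was lost when any one of the 3 replicate numbers or of 6 of the 7 populations was left out (adjusted p from 0.0583 to 0.201).

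**Figure D3:**
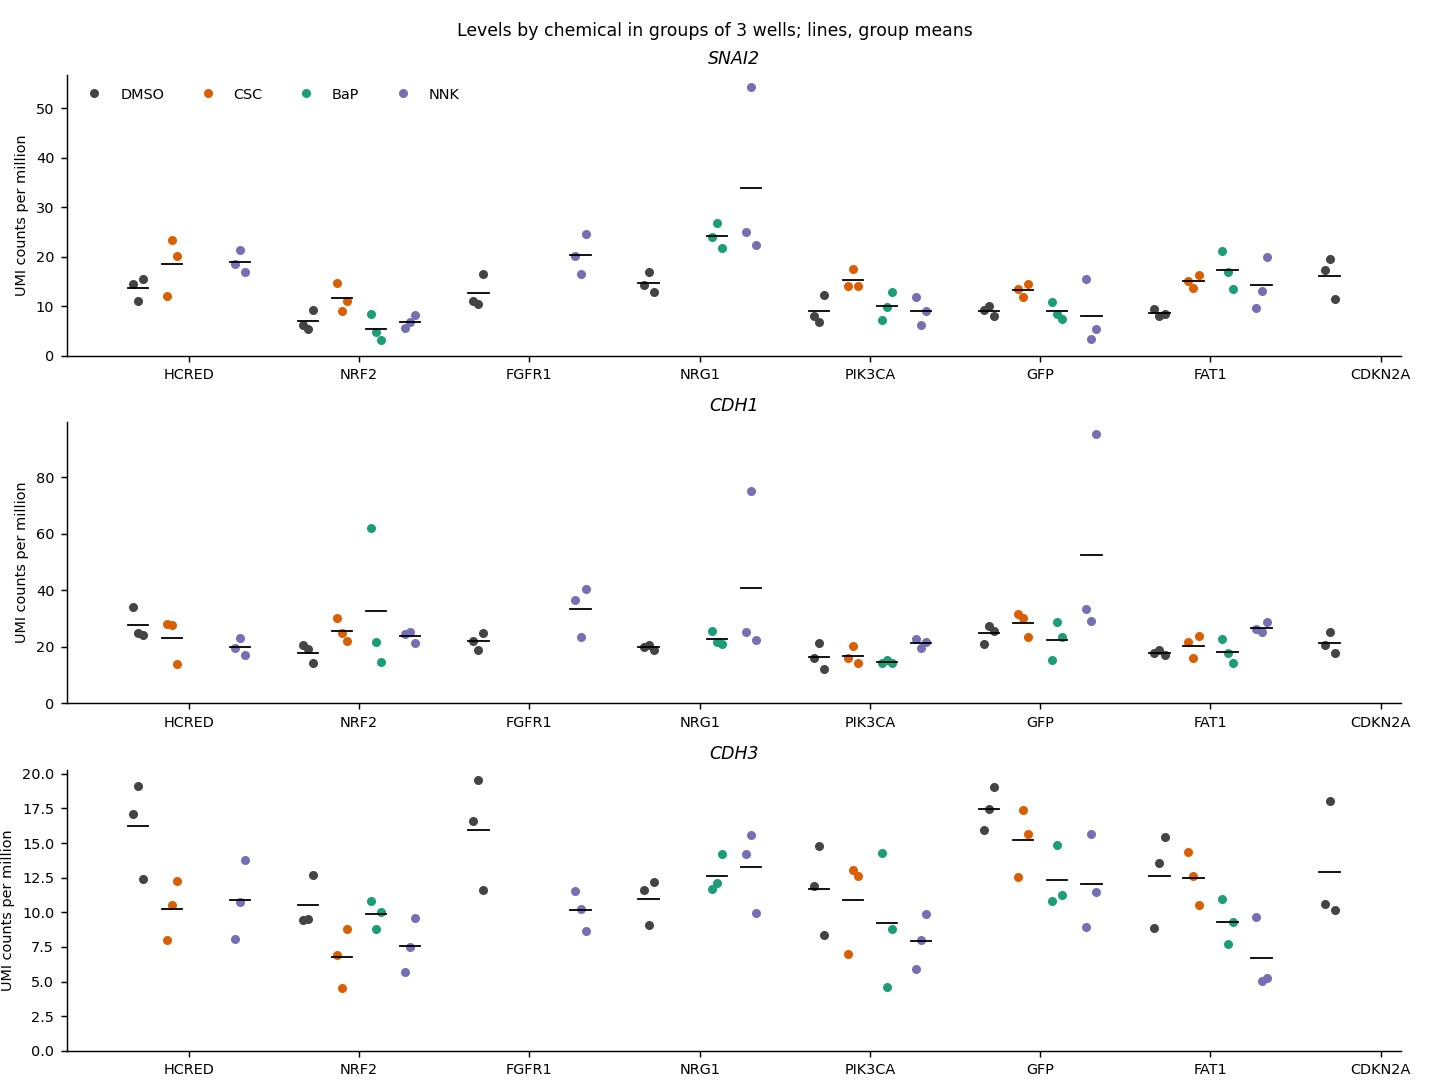
CPM (y axis, linear from 0) of SNAI2, CDH1 and CDH3 in each population (x axis), colored by chemical, for groups with 3 wells. Points are wells and lines group means. SNAI2 is higher under CSC than DMSO in 5 of 5 populations, and single CDH1 wells at 95.4, 75.3 and 61.9 CPM stand clear of the others.

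The remaining members did not pass under any chemical. The 95% intervals of the log2 fold change were -0.18 to 0.14 (CSC), -0.14 to 0.21 (BaP) and -0.26 to 0.10 (NNK) for EPCAM. For VIM they were -0.37 to 0.03, -0.43 to -0.05 and -0.30 to 0.07, and the BaP change of -0.24 had an adjusted p of 0.103. TP63 had intervals of -0.19 to 0.22, -0.39 to 0.06 and -0.27 to 0.10. The intervals of CDH2 and ZEB1 were wider, for instance -1.41 to 0.02 for CDH2 under BaP. Without NRG1 NNK replicate 2 none of these members passed under NNK in limma-voom either. EPCAM then changed by -0.17 (SE 0.08, unadjusted p = 0.0348, adjusted p = 0.125) and GRHL2 by -0.32 (SE 0.15, unadjusted p = 0.0313, adjusted p = 0.116). VIM changed by -0.09 (adjusted p = 0.522) and TP63 by -0.13 (adjusted p = 0.353). The 3 chemical comparisons share the DMSO wells.

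Whether a chemical acted unequally across populations was tested by an interaction. With a moderated F test in limma-voom, 0 of 10 members passed for CSC (0.106% of all genes), BaP (0.115%) or NNK (0.0176%), and edgeR called 0 as well. DESeq2 called 0 for NNK and gave the members no adjusted p for CSC and BaP. At an unadjusted p under 0.05 there was 1 member each, CLDN1 for CSC (adjusted p = 0.753), SNAI2 for BaP (0.718) and EPCAM for NNK (0.767). Without NRG1 NNK replicate 2, 0 members passed for NNK (0.0621% of all genes), and CDH1 and GRHL2 were the members at an unadjusted p under 0.05 (adjusted p = 0.949 for both). The SNAI2 response to BaP was thus not shown to differ between populations.

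Other genes of the same programmes were counted from 3 lists, without the 10 members. Over all genes tested under DMSO, 3.39% were higher and 1.53% lower in NRF2, 0.501% and 0.404% in FGFR1, 2.1% and 0.998% in NRG1 and 3.4% and 1.97% in PIK3CA cells. In FAT1 cells 6.49% were higher and 7.62% lower, in CDKN2A cells 8.6% and 9.28%, and in GFP against HcRed cells 5.93% and 4.86%. Of 33 mesenchymal genes, 12 to 16 could be tested in each comparison. Under DMSO, FGFR1 cells had 2 of 14 higher and 0 lower, with a median log2 fold change of 0.25 against 0.01 over all genes. SPARC, a matrix glycoprotein, averaged 142 CPM against 59.1 CPM in HcRed cells (log2 fold change 1.27, SE 0.15, adjusted p = 6.97e-14), and FN1, fibronectin, 82.8 against 50.0 CPM (0.68, SE 0.17, adjusted p = 0.00714). PIK3CA cells had 4 of 14 higher and 1 lower, the higher ones led by SPARC at 226 CPM (2.01, SE 0.12, adjusted p = 5.65e-23), and the lower one S100A4, a calcium-binding protein (-1.31, SE 0.19, adjusted p = 1.73e-07).

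NRG1 cells had 2 mesenchymal genes higher and 2 lower of 14. FN1 (0.84, SE 0.14, adjusted p = 8.25e-06) and DCN (2.01, SE 0.49, adjusted p = 0.00624) rose, while SPARC (-0.99, SE 0.17, adjusted p = 9.47e-06) and TGFBI (-0.66, SE 0.10, adjusted p = 4.69e-07) fell. SPARC thus had opposite signs among the 3 populations with high VIM. NRF2 cells, with low VIM, had SPARC higher (1.28, SE 0.13, adjusted p = 4.3e-13) and FN1 lower (-1.62, SE 0.22, adjusted p = 2.3e-08), with 1 of 14 higher and 2 lower. CDKN2A cells had 4 of 12 higher and 0 lower and FAT1 cells 2 of 12 higher and 0 lower, the latter 16.7% of the list against 14.1% of all genes called, with FN1 higher in both (1.65, SE 0.32, adjusted p = 3.34e-05, and 1.64, SE 0.31, adjusted p = 2.68e-05). GFP cells had 5 of 14 lower than HcRed cells, SPARC at 2.96 against 59.1 CPM among them.

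Of 40 further epithelial genes, 35 to 38 were tested under DMSO. CDKN2A cells, with the highest EPCAM, had 0 of 36 higher and 15 lower, a median log2 fold change of -0.58 against 0.03 over all genes, led by AP1M2, which sorts proteins to the basolateral membrane (-0.95, SE 0.14, adjusted p = 4.87e-08), and DSP, the desmosome protein desmoplakin (-0.91, SE 0.14, adjusted p = 1.49e-07). PIK3CA cells had 1 of 35 higher and 6 lower and NRG1 cells 0 of 35 higher and 4 lower, with DSP lower in both (-0.98, SE 0.10, adjusted p = 2.68e-12, and -0.93, SE 0.09, adjusted p = 1.09e-12). FGFR1 cells had 0 of 37 called by limma-voom, 5 at an unadjusted p under 0.05, 0 by edgeR and 0 by DESeq2, which gave 13 of them no adjusted p. NRF2 cells had 1 of 36, CTNNA1, higher. FAT1 cells had 3 of 38 higher and 4 lower, and GFP cells 3 of 36 higher and 2 lower than HcRed cells. These were 18.4% and 13.9% of the list, near the 14.1% and 10.8% of all genes called.

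Among 22 basal cell genes, 19 or 20 were tested under DMSO. More were lower than higher in every overexpression and knockout population, with 6 lower and 1 higher in NRF2, 5 and 0 in FGFR1, 8 and 0 in NRG1, 9 and 0 in PIK3CA, 8 and 0 in FAT1 and 5 and 2 in CDKN2A cells. These were 25% (FGFR1) to 47.4% (PIK3CA) of the list, against 0.905% (FGFR1) to 17.9% (CDKN2A) of all genes called. Between the 2 controls, GFP cells also had more lower than higher, 4 and 2 of 20, or 30% of the list against 10.8% of all genes. S100A2 was lower in NRF2, FGFR1, PIK3CA and FAT1 cells (-0.73, SE 0.03, adjusted p = 4.2e-37 in FAT1 cells) and higher in CDKN2A cells (0.22, SE 0.07, adjusted p = 0.013). KRT17, a keratin of basal cells, was lower in NRG1 (-1.19, SE 0.08) and PIK3CA cells (-1.45, SE 0.10) and higher in NRF2 cells (0.56, SE 0.07). It was also lower in GFP than in HcRed cells (-0.75, SE 0.08). KRT14 averaged 6.66 CPM in FAT1 cells against 65.8 CPM in GFP cells (-3.19, SE 0.29, adjusted p = 8.22e-17). Under NNK 2 of 20 basal genes were higher and 6 lower than in DMSO, under BaP 0 and 8, and under CSC 1 and 4, which was 40%, 40% and 25% of the list against 7.22%, 9.11% and 5.82% of all genes called. The epithelial list gave 1 of 37 higher and 7 lower under NNK, 3 and 5 of 37 under BaP, and 2 and 3 of 38 under CSC, and the mesenchymal list at most 2 in either direction. Without NRG1 NNK replicate 2, with 19.8% of all genes called, NNK had 3 of 20 basal genes higher and 8 lower, 2 of 37 epithelial genes higher and 8 lower, and 0 of 14 mesenchymal genes higher and 3 lower.

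As a description, the genes whose mean log2 CPM followed a member most closely over the 25 groups of 3 wells were sought among 5010 genes averaging at least 10 CPM. VIM was followed by ANXA3 (Pearson r = 0.88), MT1E (0.87) and MT1L (0.86), and TP63 by MIR205HG (0.84), SUN1 (0.84) and KCNQ1OT1 (0.78). MT1E and MT1L belong to the metallothionein family, whose near-identical copies can share tags. CDH3 was followed by CAPN2 (0.86), EIF4G2 (0.83) and TES (0.82), and EPCAM by TWSG1, ANKRD17 and DNM1L (0.78 each). SNAI2 was followed by KYNU (0.79), FUCA1 (0.74) and RTTN (0.73). CDH1 and GRHL2 had the weakest likeness, with SF3B3 (0.72) and HSD17B4 (0.69) first. Between members averaging at least 10 CPM, which leaves out CLDN1, ZEB1 and CDH2, r ran from -0.50 (VIM and TP63) to 0.49 (TP63 and GRHL2). CDH1 and VIM had -0.19. Without the NRG1 NNK group the values for the genes named above moved by at most 0.073 and those between members by at most 0.17, with CDH1 and VIM at -0.30. The groups share populations and plate positions, so they are not independent points.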

How the data were processed

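UMI counts per gene were deposited for 95 wells of a 3′DGE experiment. According to the methods of the study, the authors aligned reads to RefSeq transcripts of hg19 with BWA aln 0.7.10 and counted reads that shared a well barcode, gene and 10-base UMI once, so that amplification copies did not raise the deposited counts. Strand handling was not stated in the sources used here.

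Groups and replicate numbers came from the well labels. The 82 wells with 1-digit numbers were compared, and the 13 with 2-digit numbers were set aside and added only as an alternative. Each comparison used only the wells it concerns. Genes with a mean count above 1 were fitted by limma-voom 3.58.1 with TMM factors from edgeR 4.0.16 in R 4.3.3, and p-values were adjusted over all genes tested by the Benjamini-Hochberg method at a threshold of 0.05. Population comparisons under several chemicals carried chemical as a covariate, chemical comparisons carried population, and differences among 8 populations or between responses used a moderated F test. All p-values were two-sided or from F. Alternatives were edgeR's quasi-likelihood test, DESeq2 1.42.0, median-ratio factors, library totals, no filter, replicate number as a block, a single fit over all groups, and leaving out wells, replicate numbers or populations. The fits were tested on simulated counts with large changes placed in well-counted genes only. That test says little about members with small counts or small differences.

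All 10 members were named whether or not they passed. Genes named from the 3 wider lists were the up to 2 with the smallest adjusted p in each direction, and genes like a member were the 3 with the highest correlation. The members and lists were chosen with earlier results of these data known. Replicate numbers were checked for pairing and did not pair wells.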

Additional observations from a re-analysis of the deposited data

Results flagged for a closer look

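The 2-digit wells entered no main comparison of the report. The 6 values flagged here were kept by a rule. The gene had to be called for that chemical, or for that population under DMSO. Its 2-digit wells had to lie all above the DMSO wells or the control population. Values below the reference wells and genes not called were not looked for. VIM was at least 32.7 CPM in the FGFR1 CSC wells and 35.5 CPM in the NRG1 CSC wells, while the 1-digit HcRed CSC wells reached 18.6 CPM. VIM was at least 35.2 CPM in the FGFR1 BaP wells, against 16.8 CPM in the single 1-digit HcRed BaP well. EPCAM was at least 42.1 CPM in the CDKN2A CSC wells and 38.4 CPM in the CDKN2A NNK wells, above the GFP ranges of 29.3 to 31.4 and 19.0 to 25.3 CPM. SNAI2 was at least 23.4 CPM in the NRG1 CSC wells, above the 12.8 to 16.9 CPM of NRG1 cells in DMSO. The single 1-digit NRG1 CSC well had 12.9 CPM, inside that range. The single 1-digit FGFR1 CSC well had 7.76 CPM, below the 10.5 to 16.6 CPM of FGFR1 cells in DMSO. In the 2-digit FGFR1 CSC, CDKN2A CSC, HcRed BaP, FGFR1 BaP and CDKN2A NNK wells SNAI2 overlapped with DMSO. Other values lay above or below the reference wells and are not all listed. VIM, for instance, was at most 34.8 CPM in the FGFR1 and 41.3 CPM in the NRG1 CSC wells, below the DMSO wells of these cells. In the CDKN2A CSC wells VIM was 11.4 to 12.4 CPM, above the 6.99 to 9.36 CPM of CDKN2A cells in DMSO. These wells lay below the 12.6 to 13.4 CPM of GFP cells under CSC. The labels did not say whether the 2-digit wells repeat the same material, and no test was made on them alone.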

How the results depend on the processing

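Of 247 alternatives to the 20 counts of members called, 198 kept the count within 1.5 times and 49 did not. Direction was checked only for members called in a main fit that gave a fold change. None of these calls changed direction in an alternative run.

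DESeq2 called 0 members in NRF2, 1 in FGFR1, 0 in NRG1, 1 in PIK3CA, 0 in FAT1 and 1 in CDKN2A cells under DMSO, and 1 in NRF2, 0 in FGFR1, 1 in PIK3CA and 2 in FAT1 cells under the other chemicals. Under DMSO it gave no adjusted p to 8 of 9 members in NRF2, 3 of 10 in FGFR1, 10 of 10 in NRG1 and 6 of 10 in PIK3CA cells. FAT1 and CDKN2A cells lacked it for 1 of 9 each. In FGFR1 cells under NNK 9 of 9 members lacked it. The 0 in NRG1 cells under DMSO and in FGFR1 cells under NNK is thus not a failed test. Of 35 calls of single members by limma-voom, 19 passed in DESeq2 and 10 did not, and in 6 DESeq2 gave no adjusted p, among them VIM in NRG1 cells under DMSO (log2 fold change 1.53) and in FGFR1 cells under NNK (1.64). A single fit over all groups called 0 members in NRF2 and 1 each in FGFR1, NRG1 and PIK3CA cells under DMSO, and 0 under BaP. Library totals in place of TMM called 1 in FGFR1 and 1 in CDKN2A cells under DMSO and 0 in NRG1 cells under NNK. Without the filter NRF2 cells under the other chemicals had 1. With the 2-digit wells added, BaP had 2, TP63 being the second (-0.29, adjusted p = 0.0197), and without NRG1 or FAT1 cells it had 0.

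Leaving out single wells, replicate numbers or, for the chemicals, also whole populations gave 4 to 4 members for the 8 populations, 0 to 1 for BaP, 1 to 1 for CSC and 2 to 3 for NNK. Under DMSO it gave 1 to 2 in CDKN2A, 0 to 1 in FAT1, 1 to 2 in FGFR1, 0 to 1 in NRF2, 1 to 2 in NRG1 and 1 to 4 in PIK3CA cells, and under the other chemicals 1 to 5 in FAT1, 1 to 1 in FGFR1, 1 to 3 in GFP, 0 to 1 in NRF2, 0 to 1 in NRG1 and 1 to 2 in PIK3CA cells.

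Replicate numbers did not pair the wells, with correlations of deviations averaging 0.011 over 105 pairs (-0.137 to 0.135). A replicate block took PIK3CA cells under DMSO from 3 members to 2 (CLDN1 -0.94, adjusted p = 0.207) and left the other counts of members as they were.

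Over all genes, DESeq2 called 342 genes rather than 552 in NRF2, 46 rather than 103 in FGFR1, 212 rather than 351 in NRG1, 336 rather than 603 in PIK3CA, 841 rather than 1572 in FAT1, 1252 rather than 2070 in CDKN2A and 671 rather than 1201 in GFP cells under DMSO. NNK called 819 genes, 2145 without the filter and 2230 without NRG1 NNK replicate 2. With library totals the median of all genes moved by 0.104 in CDKN2A cells under DMSO and 0.143 in NRG1 cells under NNK, and the share of higher calls went from 68.8% to 42.2% in NRF2, 67.8% to 35.3% in NRG1, 63.3% to 44.3% in PIK3CA, 48.1% to 61.6% in CDKN2A cells under DMSO and 51.4% to 35.5% for BaP. The cause of these changes was not tested. Depth limits ZEB1 and CDH2 most, followed by CLDN1.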
